A study of Mus musculus with 3 samples.

Results

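Maternally methylated imprinted loci were examined in 3 whole-genome bisulfite libraries of P7 spermatogonia, which represent WT, Pld6 KO and Dnmt3l KO with 1 library each. The 10 loci were Grb10, Gnas, Nap1l5, Inpp5f, Mcts2, Snrpn, Impact, Peg3, Mest and Kcnq1ot1, taken by name as genes whose control regions receive methylation in the oocyte, out of 24953 mouse genes with a curated RefSeq transcript. Starts of 1 gene that lay within 500 bp of each other were counted as 1, which left 22 starts for these genes among 28265 in all, and 16 of the 22 lay in a CpG island or within 500 bp of one. The cells came from C57BL6/J testes and were purified by flow cytometry with an antibody to EpCAM, an epithelial surface protein that spermatogonia also carry. The KO mice lack Pld6 or Dnmt3l throughout the body, and the study's methods describe several biological replicates and 3 control genotypes under the name WT, whereas 1 file per genotype was used here. Genotype and library therefore cannot be told apart, and no spread between replicates can be given.

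An imprinted gene is expressed from the allele of 1 parent only, under the direction of a control region that is methylated in the germ cells of the other parent. At the loci described here the oocyte places the mark, and the sperm passes on an unmethylated copy, so that somatic cells carry a methylated and an unmethylated allele. Male germ cells erase the marks of both parents in the embryo and then methylate most of their genome anew before birth, with DNMT3L as a cofactor of the de novo DNA methyltransferases. PLD6 is a mitochondrial protein required for making piRNAs, the small RNAs that direct methylation to retrotransposons in these cells. Methylated copies of the TGCCGC hexamer are bound by ZFP57, which keeps the marks of imprinted loci after fertilization.

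Bisulfite turns unmethylated cytosine into a base that is read as T, so that a CpG site covered by a read yields 1 call, methylated or not. The level of a region is its methylated calls divided by all its calls, and is given with a 95% Wilson interval. These intervals cover counting error only, and calls of the same read are linked, so that they can be too narrow. At some starts where no call was methylated, the level that the depth still allows is given as 3 calls divided by all calls. At the others only the calls are given, and the level still allowed is higher where these are few. The WT library held 43757722 calls at a level of 0.703, that of Pld6 KO 64076569 calls at 0.722 and that of Dnmt3l KO 19289688 calls at 0.301. As a check of the labels, exon 1 of Pld6 held 90 calls in WT, 40 in Dnmt3l KO and 0 in Pld6 KO, and exons 4 to 9 of Dnmt3l held 68 calls in WT and 150 in Pld6 KO but 0 in Dnmt3l KO.

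The sequences of 7 windows of 250 bases show where the methylation was low and what was left of it. The first 5 are the bases just upstream of a start that lies in a germline control island, chosen because they carry no exon, and the last 2 are the windows of the Grb10 and Peg3 control islands that hold most copies of TGCCGC outside exons. They are RefSeq sequences of GRCm38.p6 (mm10) written 5′ to 3′ on the strand of the gene, with every CpG in capitals.
Mest, second start, chr6:30737800-30738049, plus strand: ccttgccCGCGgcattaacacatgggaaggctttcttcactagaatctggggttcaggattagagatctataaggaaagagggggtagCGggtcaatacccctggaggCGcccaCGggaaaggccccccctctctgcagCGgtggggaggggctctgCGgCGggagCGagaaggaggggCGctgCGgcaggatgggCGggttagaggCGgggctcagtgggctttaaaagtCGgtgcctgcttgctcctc
Kcnq1ot1, chr7:143296548-143296797, minus strand: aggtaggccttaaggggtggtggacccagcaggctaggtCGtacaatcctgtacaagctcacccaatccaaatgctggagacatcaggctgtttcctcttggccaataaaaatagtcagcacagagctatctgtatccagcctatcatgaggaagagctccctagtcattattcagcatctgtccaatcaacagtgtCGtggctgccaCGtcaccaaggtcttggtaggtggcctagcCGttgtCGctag
Nap1l5, chr6:58907127-58907376, minus strand: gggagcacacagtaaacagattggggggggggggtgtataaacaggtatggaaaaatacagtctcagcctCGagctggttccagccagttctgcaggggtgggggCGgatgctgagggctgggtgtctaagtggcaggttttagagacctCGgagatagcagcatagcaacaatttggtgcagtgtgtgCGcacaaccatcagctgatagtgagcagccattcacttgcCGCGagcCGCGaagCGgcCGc
Mcts2, chr2:152686898-152687147, plus strand: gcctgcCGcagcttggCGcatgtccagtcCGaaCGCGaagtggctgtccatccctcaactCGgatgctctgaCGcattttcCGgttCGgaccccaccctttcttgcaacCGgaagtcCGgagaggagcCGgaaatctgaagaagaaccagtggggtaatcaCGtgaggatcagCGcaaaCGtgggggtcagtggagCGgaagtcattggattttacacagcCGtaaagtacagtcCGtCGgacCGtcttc
Gnas, exon 1A, chr2:174327499-174327748, plus strand: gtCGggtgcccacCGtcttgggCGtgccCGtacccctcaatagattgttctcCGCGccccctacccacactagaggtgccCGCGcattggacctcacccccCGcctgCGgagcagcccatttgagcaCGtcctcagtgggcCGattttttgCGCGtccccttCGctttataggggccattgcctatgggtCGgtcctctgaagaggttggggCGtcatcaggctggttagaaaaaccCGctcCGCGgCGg
Grb10, control island, chr11:12026065-12026314, minus strand: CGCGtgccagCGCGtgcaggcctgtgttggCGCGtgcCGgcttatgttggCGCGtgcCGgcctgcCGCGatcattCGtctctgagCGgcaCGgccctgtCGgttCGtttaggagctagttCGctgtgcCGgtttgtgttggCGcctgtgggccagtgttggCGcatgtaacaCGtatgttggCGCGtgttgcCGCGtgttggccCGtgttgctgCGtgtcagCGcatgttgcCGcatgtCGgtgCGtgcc
Peg3, control island, chr7:6729926-6730175, minus strand: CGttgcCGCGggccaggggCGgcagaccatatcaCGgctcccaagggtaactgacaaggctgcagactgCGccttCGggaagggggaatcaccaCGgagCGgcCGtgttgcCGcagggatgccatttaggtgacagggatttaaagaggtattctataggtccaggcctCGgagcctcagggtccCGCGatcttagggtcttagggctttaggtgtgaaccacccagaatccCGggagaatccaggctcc

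None of these 7 windows was methylated at a high level in any library. The 14 CpGs of the Mest window had 0 methylated of 21 calls in WT and 0 of 50 in Pld6 KO, and only 2 calls, both unmethylated, in Dnmt3l KO. The 20 CpGs of the Mcts2 window had 0 of 73 in WT and 13 of 123 in Pld6 KO, and 0 of 37 in Dnmt3l KO. The 21 CpGs of the Gnas exon 1A window, which lie close together, had 0 of 52 in WT and 18 of 92 in Pld6 KO, and 0 of 18 in Dnmt3l KO. In the Nap1l5 window, with 10 CpGs, 4 of 31 calls were methylated in WT and 5 of 28 in Pld6 KO, with 0 of 7 in Dnmt3l KO. The 5 CpGs of the Kcnq1ot1 window had 0 methylated of 28 calls in WT, 6 of 56 in Pld6 KO and 1 of 11 in Dnmt3l KO, which was the only methylated call of that library in the 7 windows. Of the calls in the Grb10 window, which holds 32 CpGs and 4 copies of TGCCGC, 0 of 54 were methylated in WT and 11 of 155 in Pld6 KO, with 0 of 15 in Dnmt3l KO. The Peg3 window, with 15 CpGs and 3 copies, was the reverse, with 5 of 54 in WT and 0 of 52 in Pld6 KO, and it had 0 of 20 in Dnmt3l KO.

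The hexamer was common at these loci and at other CpG islands. It was found on either strand within 500 bp of 10 of the 16 island starts, or 62.5%, compared with 48.0% of all 18153 curated starts in CpG islands and 34.1% of all curated starts. The second Mest start had 10 copies in its 1-kb window, and the starts of Nap1l5 and Snrpn had 5 each. Within 500 bp of Kcnq1ot1 and of the first Inpp5f start there was no copy.

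Methylation fell to a low level around the starts and was high beside them in WT and in Pld6 KO. Pooled over the windows within 500 bp of the 16 island starts, the level was 0.0485 (0.0403 to 0.0583, 107 of 2207 calls) in WT and 0.0714 (0.0629 to 0.0810, 225 of 3150) in Pld6 KO, and 0.00939 (0.00477 to 0.0184, 8 of 852) in Dnmt3l KO. From 2 to 5 kb on both sides, the level was 0.539 in WT and 0.567 in Pld6 KO, whereas Dnmt3l KO was at 0.260. The flanks thus exceeded the starts by 0.490 (0.467 to 0.513) in WT, by 0.495 (0.475 to 0.515) in Pld6 KO and by 0.251 (0.222 to 0.280) in Dnmt3l KO. At single starts the flank was higher at 15 of 16 in WT and 15 of 16 in Pld6 KO, and 16 of 16 in Dnmt3l KO. Several flanks run into a further CpG island of the same gene, and outside 1 kb of any island of at least 500 bp the level within 5 kb of the starts was 0.746 in WT and 0.785 in Pld6 KO, and 0.378 in Dnmt3l KO, a comparison chosen after seeing the data. Over all curated starts in CpG islands, the pooled start level was 0.0243, 0.0318 and 0.00913 in WT, Pld6 KO and Dnmt3l KO. The flanks of all these starts were at 0.682, 0.715 and 0.341, so that such a dip is common to CpG-island starts.

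**Figure D1:**
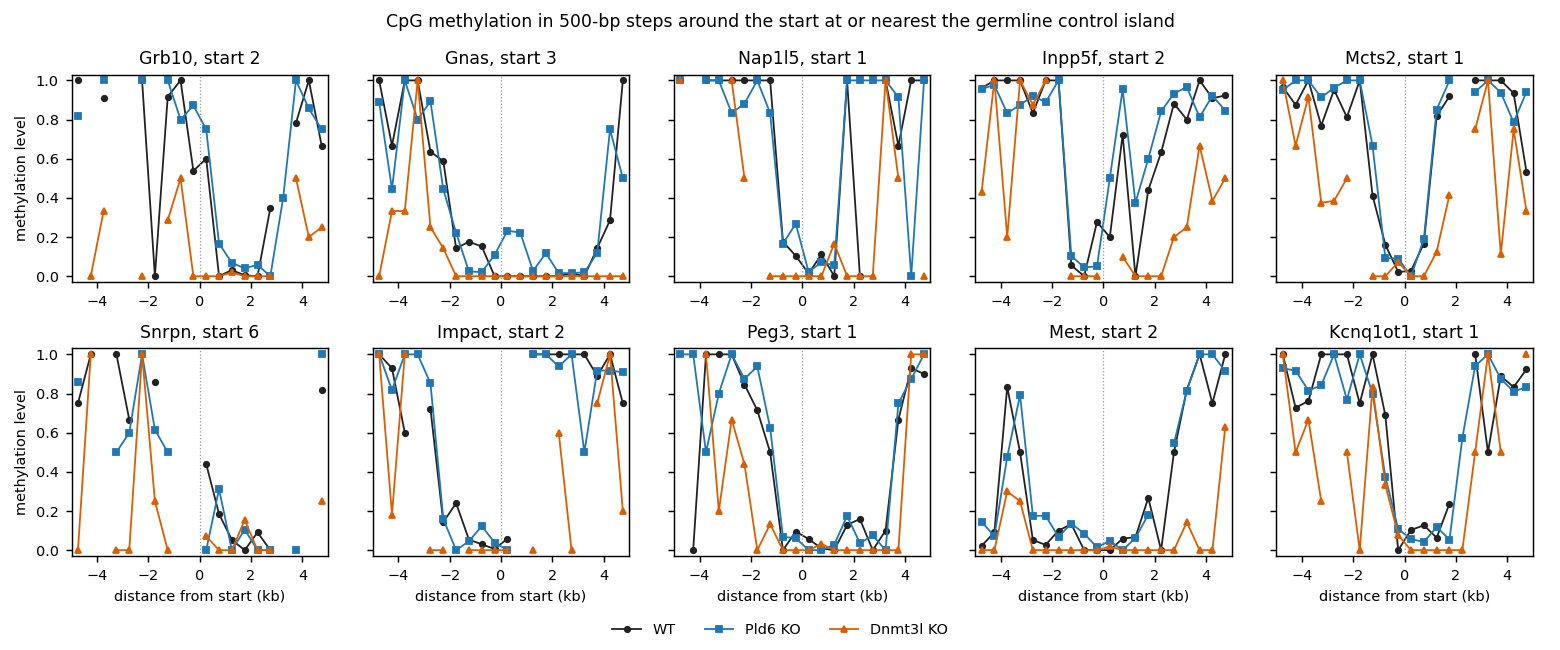
CpG methylation level (vertical axis, 0 to 1) against distance from a start in kb (horizontal axis, along the direction of transcription) in steps of 500 bp, for the start at or nearest the germline control island of each of the 10 genes. Black circles are WT, blue squares Pld6 KO and orange triangles Dnmt3l KO, 1 library each, and steps without calls are left empty. WT and Pld6 KO drop from near 1 to near 0 at most starts, and Dnmt3l KO lies lower outside the drop.

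Low starts are common to CpG islands in general. The level was under 0.1 at 12 of the 16 island starts in WT and 11 of 16 in Pld6 KO, and 16 of 16 in Dnmt3l KO, and over all curated starts in CpG islands with at least 10 calls this held for 89.8%, 88.9% and 96.3%. No methylated call was found at 3, 1 and 12 of the 16 starts in the same order. The median level of the 16 starts was 0.0304 in WT and 0.0590 in Pld6 KO, and 0 in Dnmt3l KO, beside 0.00578, 0.00758 and 0 over all island starts. The level was above the upper quartile of all island starts at 10, 12 and 4 of the 16.

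**Figure D2:**
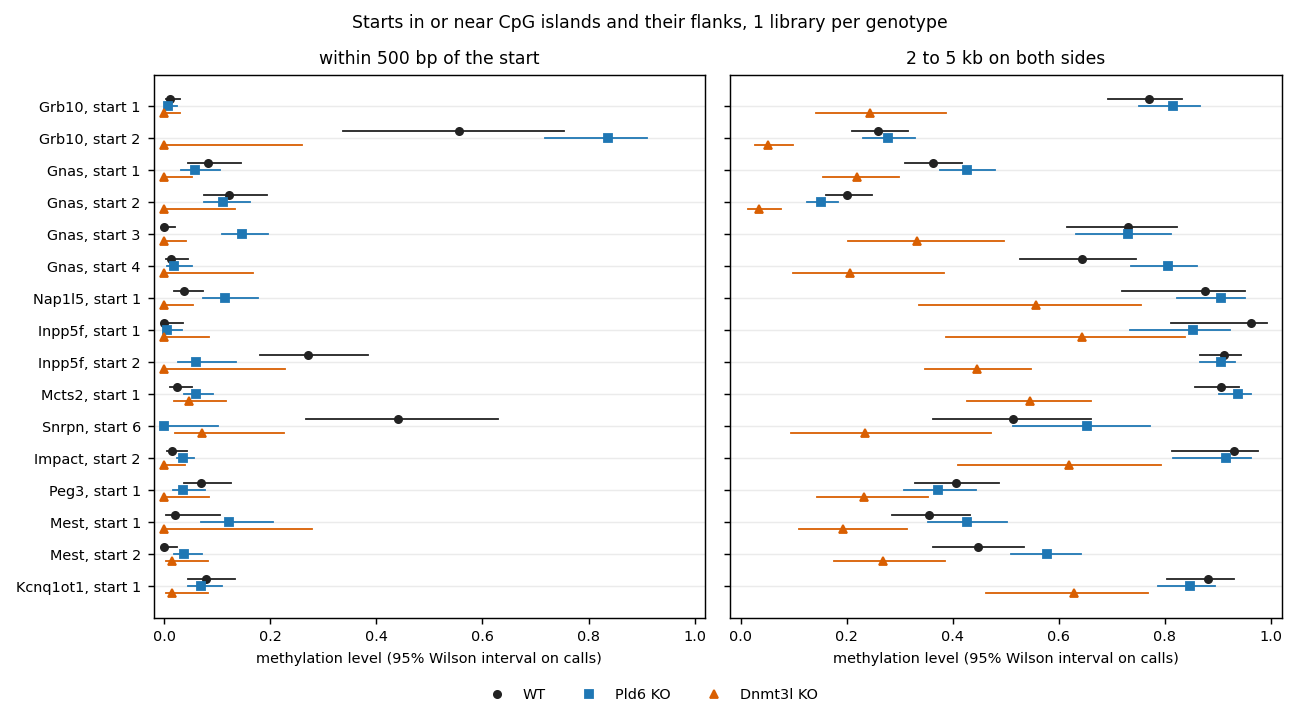
Methylation level with its 95% Wilson interval (horizontal axis) at the 16 starts in or near CpG islands (rows), within 500 bp of the start (left) and from 2 to 5 kb on both sides (right). Black circles are WT, blue squares Pld6 KO and orange triangles Dnmt3l KO. On the left most points lie under 0.1 and those of Grb10 start 2, Inpp5f start 2 and Snrpn start 6 reach 0.556, 0.271 and 0.440 in WT, and on the right Dnmt3l KO is the lowest of the 3 at every start.

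Nap1l5 and Mcts2 are retrogenes that lie in introns of host genes, and both had a low start between highly methylated stretches of the host. Nap1l5, a relative of the nucleosome assembly proteins, starts at chr6:58907126 on the minus strand within an intron of Herc3. Its level was 0.0366 (7 of 191 calls) in WT and 0.115 (17 of 148) in Pld6 KO, and 0 of 68 in Dnmt3l KO, where 3 calls would be a level of 0.0441. The flanks in the Herc3 intron were at 0.875, 0.905 and 0.556 in the same order. Mcts2, a copy of the translation factor gene Mcts1, starts at chr2:152687148 on the plus strand within an intron of H13. It had 6 of 249 calls methylated in WT (0.0241), 18 of 304 in Pld6 KO (0.0592) and 4 of 84 in Dnmt3l KO (0.0476), with flanks at 0.906, 0.938 and 0.545. Mcts2 was the start with most methylated calls in Dnmt3l KO, and all 4 lay at neighbouring sites within 45 bp. Steps under a level of 0.5 spanned 2.5 kb at both genes in WT.

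Inpp5f, a phosphoinositide phosphatase gene, has a somatic promoter and an internal one that belongs to the imprinted transcript. The first start, at chr7:128611365, was free of methylated calls in WT (0 of 103) and Dnmt3l KO (0 of 42) and had 1 of 166 in Pld6 KO. The internal start, at chr7:128688870, had 19 of 70 calls methylated in WT (0.271, 0.181 to 0.385), 5 of 82 in Pld6 KO (0.0610, 0.0263 to 0.135) and 0 of 13 in Dnmt3l KO, where 3 calls would be a level of 0.231. It was thus higher in the WT library than in Pld6 KO, whereas the flanks were alike at 0.912 and 0.905 and stood at 0.446 in Dnmt3l KO. With 1000 bp on both sides of this start the 2 libraries were closer, at 0.195 (32 of 164) in WT and 0.135 (32 of 237) in Pld6 KO. In WT, 17 neighbouring sites over 137 bp each had a methylated call, and 17 of the 18 methylated calls of the island lay in this run.

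Kcnq1ot1 is a noncoding RNA that silences its neighbours in cis and starts in an intron of Kcnq1, at chr7:143296547 on the minus strand, and its control region, also known as Lit1, served the study as a measure of somatic cells in the preparations. The level within 500 bp of the start was 0.0780 (0.0441 to 0.134, 11 of 141) in WT and 0.070 (0.0441 to 0.109, 17 of 243) in Pld6 KO, and 0.0154 (0.00272 to 0.0821, 1 of 65) in Dnmt3l KO. Over the whole 1737-bp control island the levels were 0.0933, 0.0650 and 0.00741. The flanks were at 0.881, 0.848 and 0.629, of which the last was the highest flank level in Dnmt3l KO after that of the first Inpp5f start.

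Peg3, Mest, Impact and Snrpn are expressed from the paternal allele, and each has a control island at a start. Peg3, a zinc-finger gene, starts at chr7:6730419 on the minus strand, 164 bp from the start of Usp29, which is transcribed the other way. Its level was 0.0692 (9 of 130) in WT and 0.0359 (6 of 167) in Pld6 KO, and 0 of 42 in Dnmt3l KO, and the low stretch reached 3.5 kb into the gene in both WT and Pld6 KO, so that the flank levels of 0.406, 0.373 and 0.233 still included part of it. Mest codes for a hydrolase-like enzyme. Its second start, at chr6:30738050, had 0 of 159 calls methylated in WT, 8 of 215 in Pld6 KO (0.0372) and 1 of 65 in Dnmt3l KO (0.0154), and the first, at chr6:30733506, had 1 of 50, 11 of 90 and 0 of 10. Steps under a level of 0.5 spanned 2.0 kb around the first start and 5.5 kb around the second in WT, so that the flanks of both starts, at 0.356 and 0.447, take in part of the low stretch around the second. A further island of 695 bp between the 2 starts had 5 of 115 calls methylated in WT (0.0435), 24 of 130 in Pld6 KO (0.185) and 0 of 39 in Dnmt3l KO.

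Impact, a regulator of translation, is annotated with 2 starts on chr18, and its control island of 1568 bp covers the second. Within 500 bp of the second start the level was 0.0153 (3 of 196) in WT and 0.0363 (20 of 551) in Pld6 KO, and 0 of 94 in Dnmt3l KO. The first start is not in a CpG island and was at 0.340, 0.423 and 0 (18 of 53, 30 of 71 and 0 of 21). The flanks of the second start were at 0.930, 0.915 and 0.619.

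Snrpn, which codes for a spliceosome protein, has 6 starts, and 5 of them have 5 to 7 CpGs in their windows and lie in introns or an exon of Snhg14. These 5 had 2 to 23 calls each in WT, at levels from 0.312 to 1, and 7 to 22 calls in Pld6 KO, at 0.471 to 0.857, which is too few to set them apart. Only the last, at chr7:60005199 on the minus strand, lies in a CpG island, which is part of the imprinting centre. It was covered by few calls. In WT 11 of 25 calls were methylated (0.440, 0.267 to 0.629), in Pld6 KO 0 of 34 and in Dnmt3l KO 2 of 28 (0.0714, 0.0198 to 0.226). The 11 methylated calls of WT were 1 at each of 11 neighbouring sites over 335 bp, and only 14 of its 29 CpGs had a call. In the next 500 bp downstream the order of WT and Pld6 KO was the opposite, with 5 of 27 calls methylated in WT, 10 of 32 in Pld6 KO (0.312, 0.180 to 0.486) and 0 of 15 in Dnmt3l KO. The step from 1 to 1.5 kb downstream was low in all 3 libraries, with 1 methylated of 19 calls, 0 of 17 and 0 of 7. No call was recorded within 1 kb upstream of this start in any library.

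Grb10, an adaptor of the insulin receptor, has 2 starts and a control island that lies 1248 bp downstream of the second. The first start, at chr11:12037420 on the minus strand, drives the transcript of most tissues and had 3 of 288 calls methylated in WT and 2 of 298 in Pld6 KO, and 0 of 125 in Dnmt3l KO. The second, at chr11:12027971, has 11 CpGs in its window, and only a short island lies within 500 bp of it. It was methylated at 10 of 18 calls in WT (0.556, 0.337 to 0.754) and at 46 of 55 in Pld6 KO (0.836, 0.717 to 0.911), and at 0 of 11 in Dnmt3l KO. The dip was found in the control island instead, at 0.0100 (5 of 498) in WT and 0.0526 (35 of 665) in Pld6 KO, and 0 of 211 in Dnmt3l KO. The flank of the second start, which takes in part of this island, was at 0.260 in WT and 0.278 in Pld6 KO, below the start itself.

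Gnas codes for the stimulatory G protein alpha subunit and for other products from 4 alternative starts, which lay in low regions. The starts lie at 0, 13.5, 43.4 and 45.7 kb from the first, at chr2:174284320, on the plus strand. The first start, of the Nesp transcript, is known to become methylated on the paternal allele only after fertilization, and it had 10 of 122 calls methylated in WT and 10 of 170 in Pld6 KO, and 0 of 70 in Dnmt3l KO. The second, of Gnasxl, was at 0.123 (15 of 122) in WT and 0.111 (22 of 198) in Pld6 KO, with 0 of 25 in Dnmt3l KO. Both belong to low regions that spanned 6.0 kb and 8.0 kb in WT.

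The exon 1A start of Gnas, at chr2:174327749, differed between the libraries. It had 0 of 186 calls methylated in WT, where 3 calls would be a level of 0.0161, against 39 of 265 in Pld6 KO (0.147, 0.110 to 0.195) and 0 of 91 in Dnmt3l KO. The excess continued into the neighbouring island of the Gs-alpha start, at chr2:174330006, where 2 of 397 calls were methylated in WT, 45 of 560 in Pld6 KO (0.0804) and 0 of 107 in Dnmt3l KO. Close to the Gs-alpha start itself it was not seen, with 2 of 157 and 3 of 164 calls in WT and Pld6 KO. Upstream of exon 1A, from 42 to 43 kb from the first start, the order of the libraries was the opposite. There 16 of 112 calls were methylated in WT (0.143) and 3 of 161 in Pld6 KO (0.0186). The exon 1A flanks were at 0.731 in both libraries and at 0.333 in Dnmt3l KO.

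**Figure D3:**
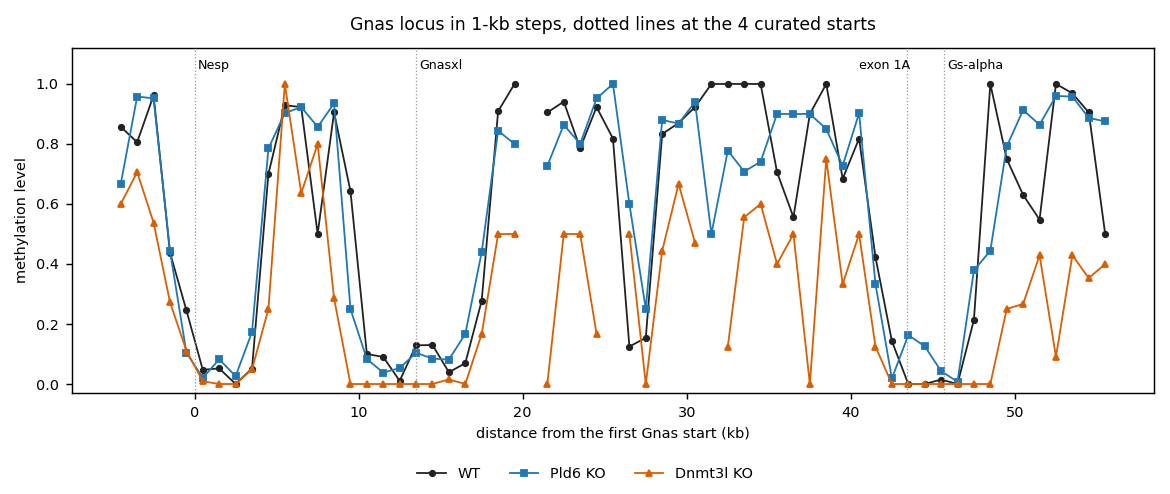
CpG methylation level (vertical axis) over the Gnas locus in steps of 1 kb against distance from its first start in kb (horizontal axis). Black circles are WT, blue squares Pld6 KO and orange triangles Dnmt3l KO, dotted lines mark the 4 starts, and steps without calls are left empty. Low regions surround the Nesp and Gnasxl starts and the exon 1A and Gs-alpha starts, and in the step at 43 kb WT is at 0 while Pld6 KO is raised.

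Fisher's exact test on the calls (two-sided, Benjamini-Hochberg adjustment over all curated starts with at least 10 calls in both libraries) compared the libraries, and its p-values can be too small because calls of a read are linked. Between WT and Pld6 KO, 2 of the 19 starts of the 10 genes that could be tested were called. The exon 1A start of Gnas was higher in Pld6 KO, by 0.147 (0.104 to 0.195, adjusted p = 5.68e-07 by Fisher's exact test), and the island start of Snrpn was lower, by a difference of -0.440 (-0.629 to -0.239, adjusted p = 0.00445 by Fisher's exact test). With 1000 bp on both sides the call at Snrpn was lost, with 16 of 52 calls in WT and 10 of 66 in Pld6 KO (adjusted p = 0.395 by Fisher's exact test), and that at exon 1A was kept, with 10 of 351 and 76 of 516 (adjusted p = 1.06e-06 by Fisher's exact test). Over all 24685 starts tested, 0.527% were called higher in Pld6 KO and 0.247% lower. The internal Inpp5f start missed the threshold (adjusted p = 0.0662 by the exact test), as did the second Grb10 start (0.577) and Nap1l5 (0.355). Of the 19 starts, 11 were higher in Pld6 KO and 8 lower.

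Between WT and Dnmt3l KO, 3 of 17 starts were called, all lower in Dnmt3l KO, beside 13.2% lower and 0.0187% higher among all 21435 starts tested. These were the second Grb10 start (from 0.556 to 0, adjusted p = 0.0290 by Fisher's exact test), the first Impact start (from 0.340 to 0, adjusted p = 0.0161) and the island start of Snrpn (from 0.440 to 0.0714, adjusted p = 0.0265). They are those with the highest levels in WT among the starts tested. The difference was not detectable at this depth at most other starts, where WT was already near 0.

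Flanks were called far more often than starts between WT and Dnmt3l KO, among these genes as over all genes, and in the same direction. Between WT and Dnmt3l KO, 21 of 22 flanks were called lower in Dnmt3l KO by the exact test and all 22 were lower, beside 93.9% of all 26723 flanks tested called lower and 0.0187% higher. The flank that was not called was that of the island start of Snrpn, with 0.513 against 0.235 (adjusted p = 0.0828 by Fisher's exact test). Among the flanks of island starts the smallest decrease was that of the Nesp start of Gnas, from 0.362 to 0.219, and the largest that of the first Grb10 start, from 0.770 to 0.244. Between WT and Pld6 KO, 0 of 22 flanks were called, 11 being higher and 11 lower, beside 3.65% called higher and 1.41% called lower among 27552. At an unadjusted p under 0.05, 5 flanks differed, 2 being higher in Pld6 KO and 3 lower. The share of all flanks under this unadjusted threshold was not determined, so that the 5 cannot be set apart from flanks in general. The higher ones were the Gs-alpha flank of Gnas (0.643 and 0.805, p = 0.0118 by Fisher's exact test) and the second Mest flank (0.447 and 0.577, p = 0.0233 by Fisher's exact test). The lower ones all belonged to Snrpn starts outside CpG islands, the first (0.850 and 0.558, p = 0.00325 by Fisher's exact test), the fourth (0.778 and 0.381, p = 0.0227) and the fifth (0.818 and 0.455, p = 0.00794).

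Gene bodies, taken as the curated transcripts beyond 5 kb of any start, were highly methylated in WT and Pld6 KO at 5 of the 8 genes that have one, with levels of 0.848 or more. In WT these were Impact (0.925), Inpp5f (0.901), Mest (0.899), Kcnq1ot1 (0.899) and Grb10 (0.888). In Dnmt3l KO the same genes were at 0.50, 0.513, 0.581, 0.502 and 0.498. Gnas (0.681 in WT, 0.753 in Pld6 KO, 0.382 in Dnmt3l KO), Peg3 (0.645, 0.578 and 0.20) and Snrpn (0.573, 0.540 and 0.117) had lower bodies in all 3 libraries. Snrpn, whose body spans 413 kb, was the lowest of the 8 in each library. Pooled over the 8 genes, the body level was 0.761 in WT and 0.750 in Pld6 KO, against 0.351 in Dnmt3l KO, and without Snrpn it was 0.841, 0.831 and 0.459. Between WT and Pld6 KO the intervals did not overlap for Impact (0.890 to 0.950 and 0.814 to 0.877) or for Gnas (0.647 to 0.713 and 0.728 to 0.777), which lay in opposite directions. The share of all gene bodies without overlap was not determined, so that Impact and Gnas cannot be set apart from gene bodies in general.

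**Figure D4:**
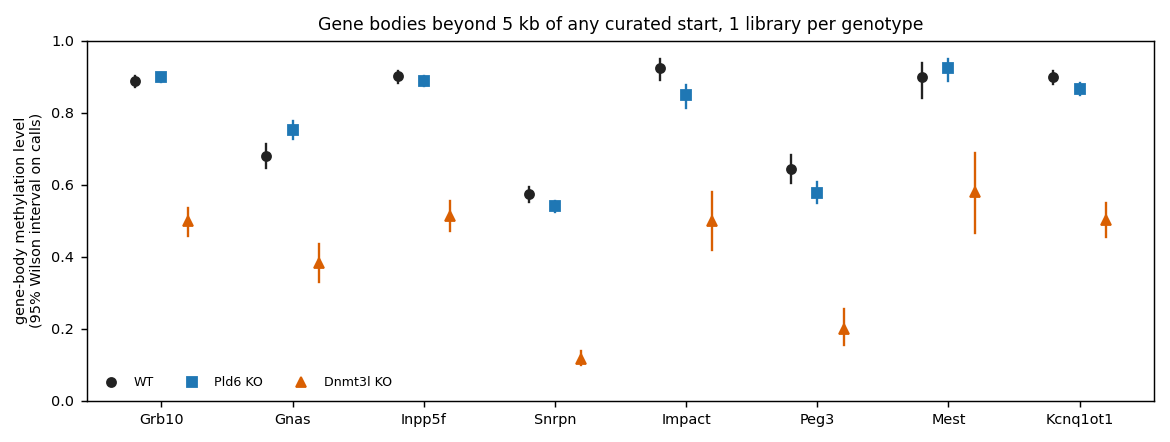
Methylation level of gene bodies beyond 5 kb of any curated start (vertical axis) with 95% Wilson intervals on the calls, for the 8 genes that have such a body (horizontal axis). Black circles are WT, blue squares Pld6 KO and orange triangles Dnmt3l KO. Dnmt3l KO is the lowest at every gene, from 0.117 at Snrpn to 0.581 at Mest.

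The calls that remained methylated inside the islands were then examined by themselves. Of the CpG islands of at least 500 bp near the starts, 15 belong to the known germline control regions of the 10 genes and 6 to other promoters of Grb10, Gnas and Inpp5f, a division made from general knowledge after the values were seen. In the control islands the level was 0.0536 (0.0466 to 0.0615, 190 of 3546) in WT and 0.0648 (0.0582 to 0.0720, 316 of 4878) in Pld6 KO, and 0.00599 (0.00315 to 0.0113, 9 of 1503) in Dnmt3l KO. In the other islands it was 0.0223, 0.0409 and 0.00165. The level over all curated starts in CpG islands, measured within 500 bp, was 0.0243, 0.0318 and 0.00913. Both sets were thus low in all 3 libraries when pooled, and lowest in Dnmt3l KO, whereas the Snrpn island alone stood at 0.440 in WT and had no methylated call in Pld6 KO. A further 3 islands were placed in neither set, also after the values were seen, and the pooled levels leave them out. They are the one between the Mest starts and a pair upstream of the first Inpp5f start, of which one had no call and the other had 4 of 4 calls methylated in WT, 41 of 42 in Pld6 KO and 8 of 9 in Dnmt3l KO.

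The difference of 0.0112 (0.000919 to 0.0212) between Pld6 KO and WT in the control islands was not evenly spread and depended on single genes. Leaving out Grb10 gave 0.00600 (-0.00552 to 0.0172), leaving out Impact 0.00705 (-0.00446 to 0.0183), leaving out Mest 0.00861 (-0.00224 to 0.0192) and leaving out Mcts2 0.00903 (-0.00172 to 0.0195), all with intervals that include 0. In the windows at the 16 starts the difference was 0.0229 (0.0100 to 0.0355) with all genes. It fell to 0.0138 (0.000218 to 0.0269) without Grb10 and to 0.0148 (-6.57e-05 to 0.0291) without Gnas. Gnas was the only gene whose removal gave an interval that included 0 there. Of the 15 control islands, the interval of the difference lay above 0 at 6, among them those of Grb10, Impact, Mcts2 and exon 1A of Gnas, below 0 at 4, among them those of Inpp5f (0.129 in WT and 0.0483 in Pld6 KO) and Snrpn, and included 0 at 5. The matching shares over all CpG islands were not determined, so that these counts cannot be set apart from those of islands in general.

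The remaining methylated calls were clustered. Of the 190 methylated calls in the control islands of WT, 156 (82.1%) lay in runs of at least 3 neighbouring covered sites that each had a methylated call, and of the 316 in Pld6 KO 273 did (86.4%). The runs of this kind numbered 20 in WT and 35 in Pld6 KO, with 1 in Dnmt3l KO, the last being that of Mcts2. The longest were 17 sites over 137 bp at Inpp5f in WT, 17 sites over 153 bp at exon 1A of Gnas in Pld6 KO and 16 sites over 181 bp at Gnasxl in WT. In the 6 other islands the share in such runs was 67.6% in WT (25 of 37 calls) and 79.5% in Pld6 KO (62 of 78). Among them the first Grb10 island had 6 methylated calls in WT that stood singly, and the 2 first Gnas islands had 14 of 17 and 11 of 11 in runs. The files give calls per site, so that the calls of a run could not be assigned to single reads.

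Germline genes whose promoters are known to be unmethylated in germ cells and methylated in somatic cells were measured beside these remainders. Pooled within 500 bp of the starts of Ddx4, Dazl, Sycp3, Mael, Stk31 and Tdrd1, the level was 0.0821 (0.0660 to 0.102) in WT and 0.112 (0.0947 to 0.131) in Pld6 KO, and 0.00498 (0.00137 to 0.0180) in Dnmt3l KO. The intervals of WT and Pld6 KO overlapped, which does not show equal levels, and the pooled difference was not tested. The level was higher in Pld6 KO than in WT at 4 of the 6 genes and lower at Sycp3 (0.305 and 0.207) and Tdrd1 (0.104 and 0.0447), and none of the 6 starts was called between these libraries by Fisher's exact test, with 3 of them (Dazl and Mael, higher in Pld6 KO, and Tdrd1, lower) under an unadjusted p of 0.05. Single genes ranged from 0.0345 (Dazl) to 0.305 (Sycp3) in WT, from 0.0447 (Tdrd1) to 0.207 (Sycp3) in Pld6 KO and from 0 to 0.0141 (Ddx4) in Dnmt3l KO. The part of somatic cells in the methylated calls of the imprinted islands was not tested.

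**Figure D5:**
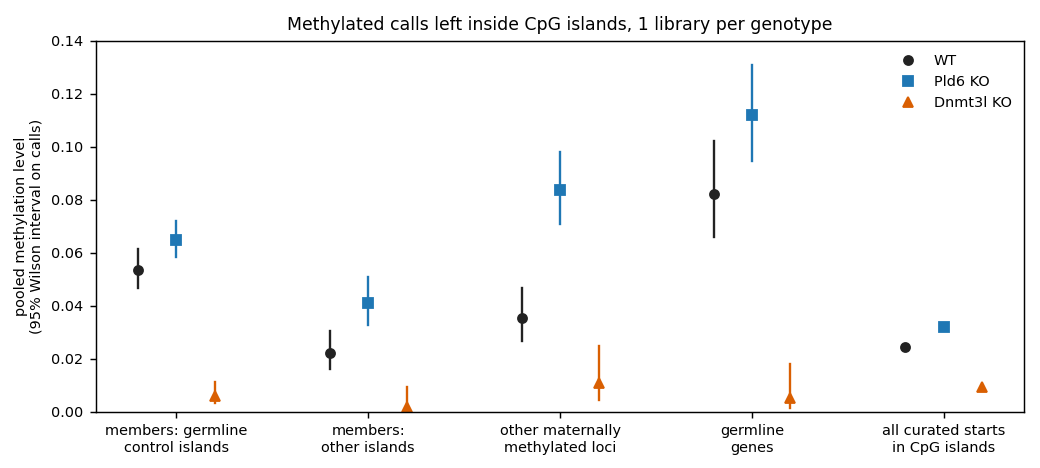
Pooled methylation level with 95% Wilson intervals on the calls (vertical axis) in 5 sets of regions (horizontal axis): germline control islands and other islands of the 10 genes, the first island starts of 8 other maternally methylated loci, the starts of 6 germline genes, and all curated starts in CpG islands. Black circles are WT, blue squares Pld6 KO and orange triangles Dnmt3l KO. Dnmt3l KO is at 0.0107 or less in every set, and Pld6 KO is the highest in each.

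Other loci with a maternal mark also had a start under 0.1 in WT, apart from Airn. At the first CpG-island start of Plagl1, Peg10, Sgce, Airn, Nnat, Zrsr1, Peg13 and Slc38a4 the pooled level was 0.0352 (0.0266 to 0.0465) in WT and 0.0835 (0.0709 to 0.0980) in Pld6 KO, and 0.0107 (0.00458 to 0.0248) in Dnmt3l KO, with the windows of the neighbouring Peg10 and Sgce starts counted once where they overlap. In WT the values ran from 0.0118 at Plagl1 to 0.231 at Airn, and in Pld6 KO from 0.0582 at Zrsr1 to 0.148 at Nnat. A further island start of Slc38a4, at chr15:97020359, was left out of the pool and was high, with 25 of 27 calls methylated in WT (0.926), 61 of 63 in Pld6 KO (0.968) and 5 of 24 in Dnmt3l KO (0.208). By contrast, the paternally methylated stretch that lies 2 to 4 kb upstream of H19 was at 0.859 (0.801 to 0.902) in WT and 0.884 (0.842 to 0.916) in Pld6 KO, and 0.148 (0.0868 to 0.241) in Dnmt3l KO.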

How the data were processed

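PBAT libraries of P7 spermatogonia were sequenced as single-end reads by the authors, who trimmed them, discarded low-quality bases and mapped unique reads with Bismark (version not given in the sources used here) to mm10. The deposited values are the count of methylated calls and the count of unmethylated calls at every CpG, beside the level as a fraction. Removal of duplicates is not stated, so that copies of 1 molecule may count more than once. The fraction matched the counts at all sites, and the counts were used here. WT, Pld6 KO and Dnmt3l KO had 3.00, 3.94 and 1.85 calls per listed site, so that Dnmt3l KO gives the widest intervals.

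Starts came from curated RefSeq transcripts of GRCm38.p6. CpG islands were windows of 200 bp with at least 50% GC and an observed/expected CpG ratio of 0.6, merged. Flanks ran from 2 to 5 kb on both sides, without bases within 2 kb of any start of the gene. Calls were pooled with Wilson intervals, and differences were given with Newcombe intervals. Fisher's exact tests (SciPy 1.17.1, Python 3.11.15, NumPy 2.4.6) compared libraries, and a start or flank was called at an adjusted p under 0.05. On simulated independent calls, a level difference of 0.3 was recovered at 74% of changed starts for WT against Pld6 KO (24685 starts) and at 78% for WT against Dnmt3l KO (21435 starts), and a difference of 0.1 at 42% and 29%. At flanks a difference of 0.3 was recovered at 84% (27552 flanks) and 44% (26723 flanks), and 0.1 at 6% and 0%. The simulation changed only a small part of the regions, whereas 93.9% of the real flanks were called lower in Dnmt3l KO. Its adjusted threshold was therefore stricter there, and its shares do not give the power of that real comparison. The simulated difference was an increase where the level was low, as at most starts in CpG islands. The real starts called between WT and Dnmt3l KO were nearly all lower in Dnmt3l KO. The shares recovered at starts thus do not give the power to find such a decrease.

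Genes named were all members, the listed imprinted and germline genes, H19, Pld6 and Dnmt3l. The exons used to check the targeted genes were chosen after their calls were seen. Members and lists were chosen with earlier results of these data known. Of the 7 printed windows, 5 matched the RefSeq promoter table. Alternatives changed the coverage limits, the pooling, the windows, the flanks and the thresholds.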

Additional observations from a re-analysis of the deposited data

How the results depend on the processing

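The difference between flank and start kept its sign under every alternative tried for it. The levels and counts have no sign that could reverse. The pooled and counted results gave 90 values under alternatives, of which 57 stayed within the interval of the reported value or within 1.5 times a count. The start level moved to 0.0361 in WT with at least 3 calls per site and to 0.0583 with the mean of site levels. With 250 bp on both sides it was 0.0340, 0.0972 and 0.00404 for WT, then Pld6 KO, then Dnmt3l KO, with 1000 bp 0.0670 in WT, and over all starts 0.0675 in WT and 0.0898 in Pld6 KO. In the CpG islands at the starts it was 0.0610 in Pld6 KO. The flank level, in the same order of libraries, was 0.354, 0.405 and 0.164 from 1 to 5 kb, 0.768, 0.769 and 0.418 from 3 to 5 kb, and 0.746, 0.785 and 0.378 outside CpG islands. With at least 3 calls per site it was 0.222 in Dnmt3l KO, where the flank then exceeded the start by 0.206, and by 0.280 with the mean of site levels. Bodies outside 2 kb of a start were at 0.706, 0.703 and 0.319, and without Snrpn at 0.841, 0.831 and 0.459. In Pld6 KO the body level was 0.763 with at least 3 calls per site and 0.728 as the mean of site levels. With 1000 bp on both sides, 6 of 17 starts were called between WT and Dnmt3l KO instead of 3, beside 27.8% of all starts tested. Between WT and Pld6 KO 1 of 20 was called instead of 2, beside 2.13%, the call at Snrpn being lost. A level difference of at least 0.3 was found at 2 of 22 flanks between WT and Pld6 KO, beside 0.690% of all flanks tested. In Pld6 KO 7 of 16 island starts lay under 0.05, beside 85.0% of all island starts. The cause of these shifts was not tested. The settings without Snrpn, outside CpG islands and in control islands were chosen after seeing the data.

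The results rest on 1 library per genotype. The Dnmt3l KO library has the fewest calls, and several starts have under 30 calls in it. Calls of a read are linked, so that runs of methylated calls count as several calls. No paired analysis was possible because each genotype has 1 library.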
